A study of Mus musculus with 4 samples.

Results

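Dendritic cells that have met a danger signal mature: they stop taking up antigen, raise their co-stimulatory ligands and travel along CCL19 and CCL21 to the lymph node, where they prime T cells. The genes of this program fall into guidance and motility (Ccr7 and Fscn1), chemokines that call in T cells (Ccl17 and Ccl22), a cytokine subunit (Il12b), ligands for CD28 and CTLA-4 (Cd80 and Cd86), a maturation marker (Cd83), a transcription factor of the non-canonical NF-κB pathway (Relb) and an amino acid oxidase that restrains T cells (Il4i1). In tumors, dendritic cells that carry this program together with regulatory molecules are known as mature regulatory dendritic cells.

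These 10 genes, of 31253 in the files, were taken by their symbols and followed over every class of leukocyte in CT2a gliomas of WT and CaMKK2 KO mice. CT2a is a mouse glioma line that was implanted into the brain, and CaMKK2 is a calcium- and calmodulin-activated kinase. Live CD45+ cells were sorted from tumor-bearing hemispheres on day 14 and profiled by single-cell RNA sequencing of transcript 3′ ends. Both groups were on the C57Bl/6 background, the WT group carried the intact gene, and the KO group carried CaMKK2-/-, a deletion present in all cells of the body and therefore not specific to leukocytes. The labels give neither the ages of the mice nor any drug treatment. Each group held 4 mice, told apart by hashtag antibodies and numbered here by hashtag. All 4 mice of a genotype shared 1 channel, so genotype and channel cannot be told apart, and every genotype difference below is also a difference between channels.

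After filtering, 5049 WT and 5635 CaMKK2 KO cells remained, with 1005 to 1665 cells and 11911996 to 20329059 unique molecular identifiers (UMIs) per mouse. Camkk2 itself was at 28.3, 29.5, 39.0 and 27.6 CPM (UMIs scaled to a total of 1000000 per mouse, or per mouse and class below) in the WT mice and at 14.8, 18.3, 13.3 and 22.8 CPM in the CaMKK2 KO mice. The groups did not overlap, with a log2 fold change of -0.85 (SE 0.18) and an adjusted p of 0.0688 in edgeR's quasi-likelihood test. DESeq2 gave an adjusted p of 0.0153. Reads of the 3′ end need not cover the deleted part of the gene, so the remaining UMIs do not check the deletion. The channels had 42 barcodes in common, 8 of them among the cells analysed. Of these cells, 639 in the WT group (12.7%) and 805 in the CaMKK2 KO group (14.3%) fell in no class and entered only the sums over all cells.

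Cells were placed in classes by marker lists that held none of the 10 genes. The mature dendritic cell-like (mature DC-like) class had 74 WT cells (3, 25, 27 and 19 in mice 1 to 4) and 109 CaMKK2 KO cells (16, 34, 25 and 34). These cells had a median of 13 of the 17 mature markers detected. Their median was 0 markers of T cells and 0 of B cells, 1 of conventional type 1 dendritic cells (DC1) and 2 of type 2 (DC2). Cacnb3, a calcium channel subunit, and Tbc1d4 and Bcl2l14, all on the marker list, were among their 10 leading genes, as were the members Fscn1, Ccr7, Ccl22 and Il4i1. Of these 183 cells, 158 (86.3%) lay in a single cluster computed without the 10 genes, and all 158 cells of that cluster were in the class. In all, 13 WT and 27 CaMKK2 KO cells scored within 0.25 of the cutoff, on either side. WT mouse 1, with 3 cells, was left out of the levels and tests of this class, so that n = 3 WT and 4 CaMKK2 KO mice there. The other classes were DC1-like, DC2-like, plasmacytoid (pDC-like), tumor-associated macrophage-like (TAM-like), microglia-like, classical monocyte-like (cMono-like), non-classical monocyte-like (ncMono-like), neutrophil-like, B-like, NK-like, T-like and basophil or mast cell-like cells.

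On GRCm38, the build of the files (mm10), the chemokine genes Ccl22 (chromosome 8, 94745590 to 94751699) and Ccl17 (chromosome 8, 94810453 to 94812036) lie on the same strand of the same chromosome. Cd86 (chromosome 16, 36603869 to 36666081) and Cd80 (chromosome 16, 38455561 to 38496335) share a chromosome too. Ccr7 spans 99144196 to 99155077 and Il12b 44400063 to 44414033 on chromosome 11. Relb spans 19606217 to 19629438 and Il4i1 44816387 to 44840809 on chromosome 7. Fscn1 is on chromosome 5 (142960343 to 142973185) and Cd83 on chromosome 13 (43784775 to 43803132). Positions are those of whole genes in GENCODE M21, and the 3′ counts do not resolve exons or isoforms.

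RefSeq promoter sequence was at hand for 6 of the 10 genes, namely Fscn1, Ccl17, Ccl22, Il12b, Cd80 and Il4i1. Printed here are the genes of this set with over 70% of their UMIs over all mice in mature DC-like cells, Fscn1, Ccl22 and Il12b, and Cd80, whose level differed between the genotypes in monocytes. Each runs 5′ to 3′ on the plus strand of GRCm38.p6, and stops before the first annotated untranslated base. The RefSeq starts of Fscn1, Ccl22, Cd80 and Il4i1 lie within the gene spans given above. The prints of Fscn1 and Ccl22 therefore stop short of the RefSeq start, with 238 and 156 of the 250 bases searched. Distances below are counted from the RefSeq start, not from the end of the print. Capitals mark matches to the motifs searched on both strands of the 250 bases before the start.
Fscn1 (chr5:142960105-142960342): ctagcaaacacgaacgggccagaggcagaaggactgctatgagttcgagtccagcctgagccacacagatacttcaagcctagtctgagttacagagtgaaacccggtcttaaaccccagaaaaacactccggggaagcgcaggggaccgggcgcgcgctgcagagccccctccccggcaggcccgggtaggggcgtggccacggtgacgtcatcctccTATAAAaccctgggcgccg
Ccl22 (chr8:94745434-94745589): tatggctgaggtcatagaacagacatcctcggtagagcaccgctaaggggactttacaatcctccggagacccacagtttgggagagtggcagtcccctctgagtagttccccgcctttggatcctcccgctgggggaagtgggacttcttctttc
Il12b (chr11:44399813-44400062): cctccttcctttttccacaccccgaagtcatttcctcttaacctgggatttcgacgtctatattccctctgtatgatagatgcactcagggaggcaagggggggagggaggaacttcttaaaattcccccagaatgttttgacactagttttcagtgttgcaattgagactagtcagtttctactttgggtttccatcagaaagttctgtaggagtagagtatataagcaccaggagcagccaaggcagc
Cd80 (chr16:38458683-38458932): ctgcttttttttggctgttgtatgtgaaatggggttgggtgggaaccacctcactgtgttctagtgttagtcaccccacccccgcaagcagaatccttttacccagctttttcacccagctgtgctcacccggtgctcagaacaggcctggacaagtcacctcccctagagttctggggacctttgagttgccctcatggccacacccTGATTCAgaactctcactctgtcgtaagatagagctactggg
The capitals in Fscn1 are a TATAAA box, found in 12.4% of the 32851 promoters searched, 31 to 26 bases before the start. Those in Cd80 match TGANTCA, the site of AP-1, found in 6.75% of promoters, 42 to 36 bases before the start. Of the genes not printed, Il4i1 held 1 match to GAGGAAGT, a PU.1 site found in 2.44% of promoters, and Ccl17 held none. The NF-κB consensus was found in 7.25% of all promoters and in none of the 6 windows. The motifs do not overlap each other in these windows, and a match is a description of letters, not of a bound site.

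Mature DC-like cells were few, 74 of 5049 WT and 109 of 5635 CaMKK2 KO cells, but held most molecules of 5 members. They had 87.3% of all Fscn1, 81.1% of Ccr7, 79.5% of Il12b, 72.8% of Ccl22 and 60.1% of Il4i1 UMIs. Cd80, Cd83 and Relb were likewise at their highest level per UMI there, but most of their molecules lay elsewhere, with 16.3%, 11.4% and 18.8% in mature DC-like cells. These shares pool all mice. DC2-like cells held 66.9% of Ccl17 UMIs in WT mice but 47.7% in CaMKK2 KO mice, where the share in single mice went down to 5.45%. The largest share of Cd86 UMIs was in TAM-like cells in WT mice (39.4%, against 14.3% in cMono-like cells) and in cMono-like cells in CaMKK2 KO mice (31.8%, against 25.9% in TAM-like cells). Cells of no class held 1.26% of Ccr7 and 18.0% of Cd86 UMIs over all mice, the lowest and highest shares among the 10 genes. For the chemokines that share differed between the genotypes. Cells of no class held 2.30% of Ccl17 and 2.13% of Ccl22 UMIs in WT mice, against 34.5% and 28.6% in CaMKK2 KO mice, with up to 78.2% and 59.2% in a single mouse. The levels of both chemokines in CaMKK2 KO dendritic classes below leave these molecules out, and their part in the differences was not tested. The plot of levels by class shows these patterns side by side. Classes were cut from the same cells, so levels are compared between them without a test.

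**Figure D1:**
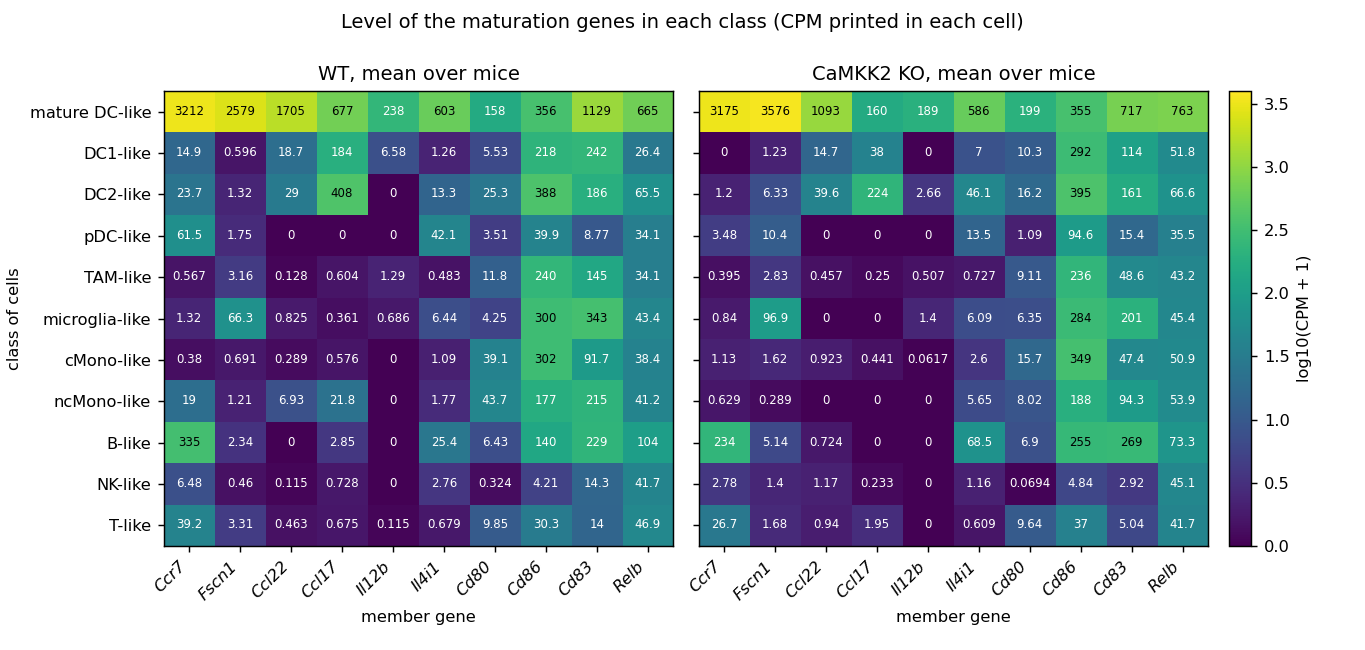
Mean level of each of the 10 genes (columns) in each of 11 classes (rows), in CPM as printed and coloured by log10(CPM + 1), for WT mice (left) and CaMKK2 KO mice (right). The mature DC-like row is the highest for Ccr7 (3212 and 3175 CPM) and Fscn1 (2579 and 3576 CPM), whereas Cd86 and Relb are spread over most rows.

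Ccr7, the receptor that guides mature dendritic cells and naive lymphocytes to lymph nodes, was at 3329, 3072 and 3234 CPM in the mature DC-like cells of WT mice 2 to 4. The 4 CaMKK2 KO mice had 2678, 3456, 3044 and 3521 CPM. Next came B-like cells, at 335 ± 115.1 CPM in WT mice (SD, n = 4) against 234 ± 61.7 CPM in CaMKK2 KO mice, 11.2-fold below mature DC-like cells over all mice. No mouse of either class reached the range of the other. T-like cells were at 32.9 CPM over all mice (12.5 to 52.1 CPM). The pDC-like mean of 32.5 CPM over 6 mice rested on 179 CPM in the 5 cells of WT mouse 3, and the median was 4.27 CPM. TAM-like cells had 14 Ccr7 UMIs in 1459 WT cells and 9 in 991 CaMKK2 KO cells.

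Fscn1 encodes fascin, which bundles actin into the long processes of mature dendritic cells. It was at 2941, 2863 and 1933 CPM in mature DC-like cells of WT mice and at 2252, 3946, 3563 and 4545 CPM in those of CaMKK2 KO mice. Microglia-like cells were the other class with Fscn1, with 59.7, 60.4, 56.1 and 88.8 CPM in WT mice and 95.9, 71.6, 114.4 and 105.7 CPM in CaMKK2 KO mice. That was 38.6-fold below mature DC-like cells and 13.4-fold above the next class. A UMI of Fscn1 was seen in 49.4% of WT and 59.4% of CaMKK2 KO microglia-like cells, against 4.93% and 4.94% of TAM-like cells, which were sequenced more deeply (median 16716 and 17042 UMIs, against 12564 and 12103).

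Ccl22 and Ccl17 are both ligands of CCR4, the receptor of regulatory and type 2 helper T cells. Ccl22 was at 2347, 1473 and 1296 CPM in mature DC-like cells of WT mice and at 1211, 1051, 1081 and 1028 CPM in those of CaMKK2 KO mice. The groups did not overlap. DC2-like cells were next, with 29.0 ± 15.4 CPM in WT mice, against 39.6 ± 32.5 CPM in CaMKK2 KO mice, 39.5-fold below. Ccl17 was instead shared by the dendritic classes, at 495, 1108 and 427 CPM in mature DC-like cells of WT mice and 91.0, 209, 311 and 27.4 CPM in those of CaMKK2 KO mice. In DC2-like cells it was at 182, 424, 689 and 336 CPM in WT mice and 345, 248, 285 and 17.0 CPM in CaMKK2 KO mice. Over all mice the ranges of Ccl17 in mature DC-like and DC2-like cells overlapped (381 ± 362 and 316 ± 194 CPM), a spread that includes the difference between the genotypes. Within WT mice 2 to 4 the mature DC-like level was the higher in each. Among CaMKK2 KO mice it was higher in mice 3 and 4 and lower in mice 1 and 2. No pDC-like cell of 81 had a UMI of either chemokine.

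Il12b encodes the p40 subunit shared by IL-12 and IL-23. It was at 226, 302 and 184 CPM in mature DC-like cells of WT mice and at 39.8, 180.4, 378 and 158 CPM in those of CaMKK2 KO mice. Among the other 10 classes of the level plot its mean over mice of both genotypes was at most 3.29 CPM, in DC1-like cells. These were at 6.58 CPM in WT mice and 0 CPM in CaMKK2 KO mice. Il12b had 518 UMIs in all, so that levels outside mature DC-like cells rested on few molecules. In DC2-like cells no UMI was counted in 308 WT cells, and 9 were counted in a single cell of 143 in CaMKK2 KO mice. Its partner subunit Il12a had too few UMIs in mature DC-like cells to be tested.

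Il4i1, a secreted oxidase of phenylalanine and tryptophan, was at 629, 448 and 732 CPM in mature DC-like cells of WT mice and at 438, 633, 574 and 699 CPM in those of CaMKK2 KO mice. B-like cells were next at 25.4 ± 37.2 CPM in WT mice, against 68.5 ± 45.6 CPM in CaMKK2 KO mice. B-like, DC2-like and pDC-like cells overlapped in Il4i1. TAM-like cells had 12 Il4i1 UMIs in WT and 8 in CaMKK2 KO mice.

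Among the ligands of CD28, Cd80 and Cd86 were distributed differently. Cd80 was highest in mature DC-like cells, with 161, 188 and 126 CPM in WT mice and 199, 149, 263 and 185 CPM in CaMKK2 KO mice, 6.64-fold above cMono-like cells over all mice. Cd86 was at 353, 358 and 358 CPM in mature DC-like cells of WT mice and 227, 309, 342 and 541 CPM in those of CaMKK2 KO mice. Its range in DC2-like cells overlapped this, at 388 ± 32.7 CPM in WT mice, against 395 ± 118 CPM in CaMKK2 KO mice. Each class overlapped the next in Cd86 all the way down the order of 11 classes. NK-like cells, at 4.21 ± 1.61 and 4.84 ± 2.73 CPM, had the lowest level of Cd86 among classes present in all mice.

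Cd83, a surface molecule raised on maturation, and Relb, the partner of p52 in the non-canonical NF-κB dimer, were found in a wider range of classes. A UMI of Relb was seen in 33.5% to 44.4% of the TAM-like, microglia-like, cMono-like and B-like cells of either genotype. One of Cd83 was seen in 27.3% to 71.4%. T-like cells had 29.9% to 30.4% and 3.21% to 8.85%. Depth differed between these classes. At an equal 3000 UMIs per cell, Relb was seen in 11.6% of WT and 12.4% of CaMKK2 KO T-like cells. TAM-like, microglia-like and cMono-like cells of either genotype had 7.88% to 14.8%, and B-like cells 28.8% and 19.6%. Of these classes, only B-like cells thus stood above T-like cells in both genotypes. For Cd83 the classes had 12.46% to 48.7%, against at most 3.13% of T-like cells. Cd83 was at 1062, 1081 and 1243 CPM in mature DC-like cells of WT mice and at 847, 690.1, 633 and 696 CPM in those of CaMKK2 KO mice, without overlap. Microglia-like and B-like cells came next, at 272 ± 96.6 and 249 ± 88.9 CPM over all 8 mice. Relb was at 690.3, 646 and 658 CPM in mature DC-like cells of WT mice and at 534, 977, 625 and 915 CPM in those of CaMKK2 KO mice. B-like cells followed, at 104 ± 13.3 CPM in WT mice, against 73.3 ± 10.8 CPM in CaMKK2 KO mice. Below them each class overlapped the next, from DC2-like cells at 66.1 CPM to pDC-like cells at 34.8 CPM over all mice.

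Single mature DC-like cells carried most of the program at once. The median cell had a UMI of 8 of the 10 genes in both genotypes, and 89.2% of WT and 86.2% of CaMKK2 KO cells had at least 6. In the other classes at most 4.87% of cells had 6 or more, although DC1-like and DC2-like cells were sequenced more deeply (medians of 16338 to 21242 UMIs, against 8870 and 9971). All 10 genes were seen in 13 WT and 8 CaMKK2 KO mature DC-like cells. Detection in these cells was 93.2% and 87.2% for Ccr7, where T-like cells had 12.3% and 9.07%. For Ccl22 it was 79.7% and 80.7%, where T-like cells had 0.450% and 0.885%. At an equal 3000 UMIs per cell, Ccr7 was seen in 89.9% of WT and 84.8% of CaMKK2 KO mature DC-like cells and in 5.78% and 4.78% of T-like cells.

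Ccl17 and Il12b were detected in a minority of mature DC-like cells. Of the Ccl17 UMIs, 72.0% came from the 8 highest of 74 WT cells and 88.7% from the 11 highest of 109 CaMKK2 KO cells. For Il12b these shares were 60.3% and 72.5%. For Relb the same numbers of cells held 24.4% and 22.9%, and for Fscn1 30.2% and 27.6%. No Ccl17 UMI was found in 56.8% of WT and 75.2% of CaMKK2 KO cells, and the highest single cells held 134 and 44.

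The genes of highest Pearson r with Ccr7 were found over 91 sums per mouse and class, which share libraries, among 11275 genes with at least 200 UMIs. Cxcr5, the receptor that brings B cells into follicles, had the highest r, 0.82. It had a UMI in only 26 of the 91 sums. Unlike Ccr7, Cxcr5 was higher in B-like cells (102 CPM) than in mature DC-like cells (46.8 CPM). Tmem123 (0.81), Cd200 (0.80) and Mreg (0.79) followed, and all 3 were on the list that defined the mature class. Ccser2, at 0.75, was the fifth. Of the members, Relb was closest at 0.68 and Cd86 farthest at 0.05.

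Between the genotypes, none of the 10 genes passed the test in mature DC-like cells. All 10 were tested there, and over all 1353 genes tested 0.296% were called at an adjusted p of 0.05 (edgeR). At an unadjusted p of 0.05, 3 members passed, all lower in CaMKK2 KO mice. DESeq2 called 2 of them, Ccl22 (adjusted p = 0.0382) and Cd83 (adjusted p = 0.0155). The share of all genes passing was not counted under either criterion, so these counts cannot be set against it. The members' median log2 fold change was -0.02, against 0.07 for all genes tested.

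**Figure D2:**
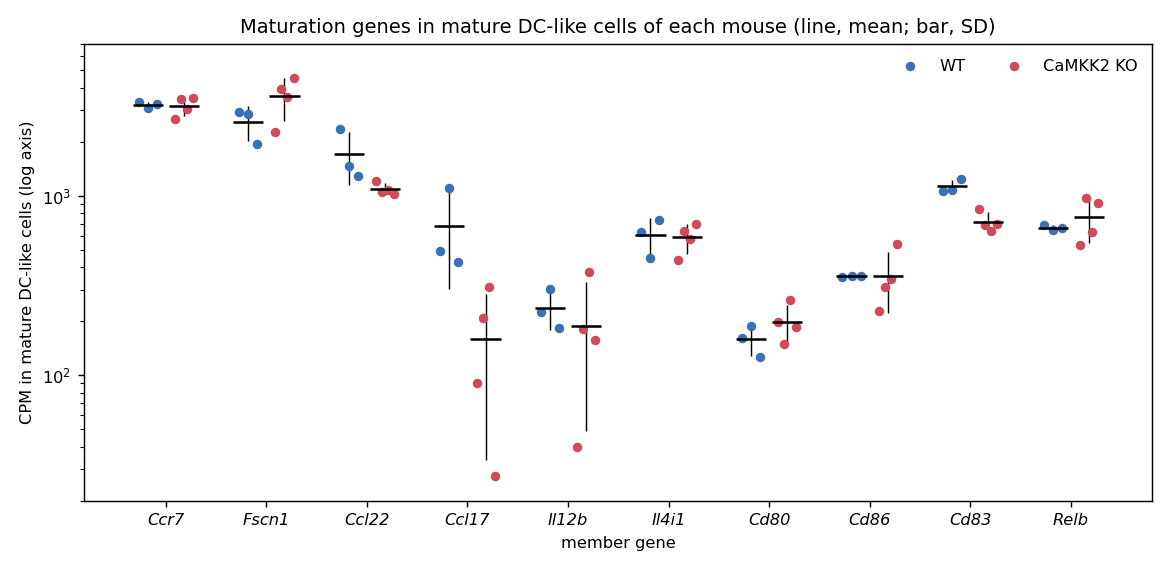
Level of the 10 genes in mature DC-like cells of each mouse, in CPM on a log axis, with 3 WT mice in blue and 4 CaMKK2 KO mice in red; lines give means and bars SDs. The groups do not overlap for Ccl22, Ccl17 and Cd83, and overlap for the other 7 genes. How many of all genes tested do not overlap was not counted.

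Ccl17 had the widest difference, a log2 fold change of -2.08 (SE 0.58, adjusted p = 0.169), with means of 677 ± 376 and 159.5 ± 126 CPM. Cd83 differed by -0.66 (SE 0.17, adjusted p = 0.163) and Ccl22 by -0.65 (SE 0.21, adjusted p = 0.169). Without CaMKK2 KO mouse 1, Cd83 passed in edgeR (adjusted p = 0.0350), and with classes taken from clusters Ccl17 did (log2 fold change -2.71, adjusted p = 0.0344). Ccr7 differed by -0.02 on the log2 scale, with bounds of -0.34 and 0.31 at 2 standard errors, and Il4i1 by -0.03, with bounds of -0.48 and 0.42. Il12b, at -0.32, had wider bounds of -1.27 and 0.64. Fscn1 was at 0.47 (SE 0.25, adjusted p = 0.362), Cd80 at 0.31, Relb at 0.21 and Cd86 at 0.01.

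A difference in the share of mature DC-like cells was not detectable. They were 0.299%, 1.88%, 2.05% and 1.36% of all cells in the WT mice and 1.23%, 2.04%, 1.66% and 2.94% in the CaMKK2 KO mice, with overlapping groups. The means were 1.397 ± 0.788% and 1.97 ± 0.730% (n = 4 each, two-sided exact permutation test p = 0.4, adjusted p = 0.4). The shares of conventional dendritic cells did not overlap under the marker rule, and were not recomputed under another class rule. For DC1-like cells, 33 WT and 54 CaMKK2 KO cells scored near the cutoff, on either side, where the class held 92 and 60. For DC2-like cells, 121 and 86 did so, where the class held 308 and 143. The part of such cells in these shares, and in the mature share of dendritic cells below, was not tested. In WT mice DC2-like cells made up 6.08 ± 0.608% and DC1-like cells 1.82 ± 0.410%, and in CaMKK2 KO mice 2.49 ± 1.17% and 1.03 ± 0.353% (exact permutation p = 0.0286 for each, the smallest that 4 against 4 mice can give, adjusted p = 0.0571). Of mature, DC1-like and DC2-like cells together, the mature ones were 3.66%, 20.5%, 22.3% and 12.8% in WT mice and 21.3%, 37.8%, 26.3% and 65.4% in CaMKK2 KO mice. That difference, 14.8 ± 8.51% against 37.7 ± 19.7%, had an exact permutation p of 0.0571 (adjusted p = 0.0762), and was 13.7 percentage points without CaMKK2 KO mouse 4. Shares are of sorted cells and rise when other classes fall.

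**Figure D3:**
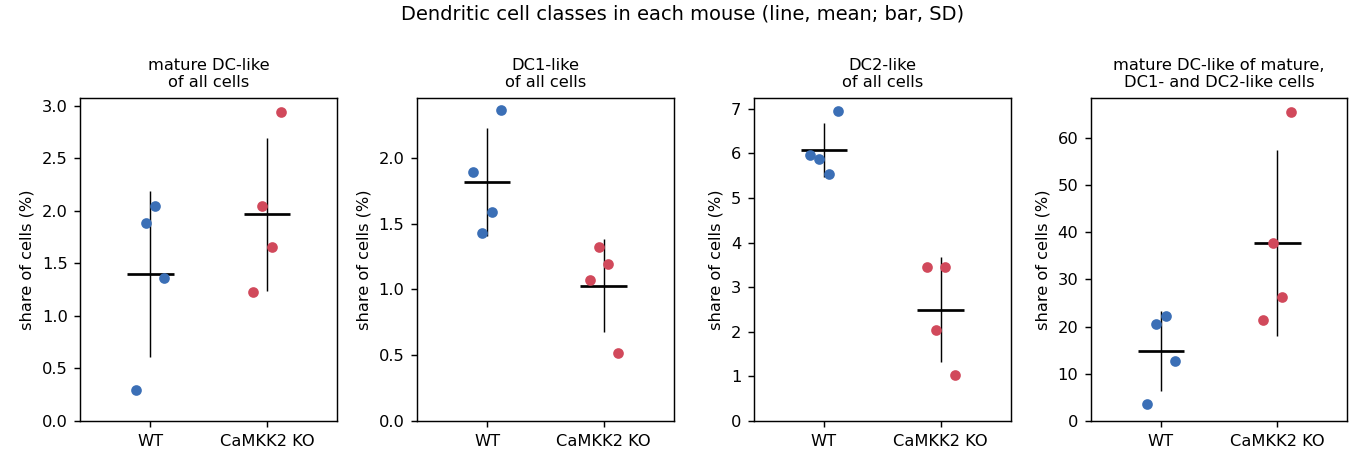
Share of dendritic cell classes in each mouse, in percent of all cells (first 3 panels) and, for mature DC-like cells, of the 3 classes together (last panel); lines are means and bars SDs of 4 mice. DC2-like cells do not overlap between WT and CaMKK2 KO mice, and mature DC-like cells as a share of all cells do.

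Over all cells of a mouse, fewer cells of a type and less RNA per cell cannot be told apart. Of the 10 genes 1 was called there, Cd83, lower in CaMKK2 KO mice, while 1.59% of 11275 genes were called and 0.905% were called as lower. Cd83 was at 156, 119.8, 154 and 139.8 CPM in the WT mice and 58.9, 68.8, 50.4 and 91.3 CPM in the CaMKK2 KO mice (log2 fold change -1.08, SE 0.18, adjusted p = 0.0240). Fscn1 was at 36.1 ± 19.4 and 72.0 ± 45.3 CPM (log2 fold change 0.99, adjusted p = 0.370). It was lowest in the WT mouse with 3 mature DC-like cells (15.1 CPM) and highest in CaMKK2 KO mouse 4 (134 CPM).

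Outside mature DC-like cells, 29 tests of members in 9 further classes gave 2 calls, Cd83 in TAM-like and Cd80 in cMono-like cells. Over all genes tested, the share called in these classes went from 0.566% (ncMono-like) to 3.07% (NK-like). The plot of genotype differences gives each of them with its error.

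**Figure D4:**
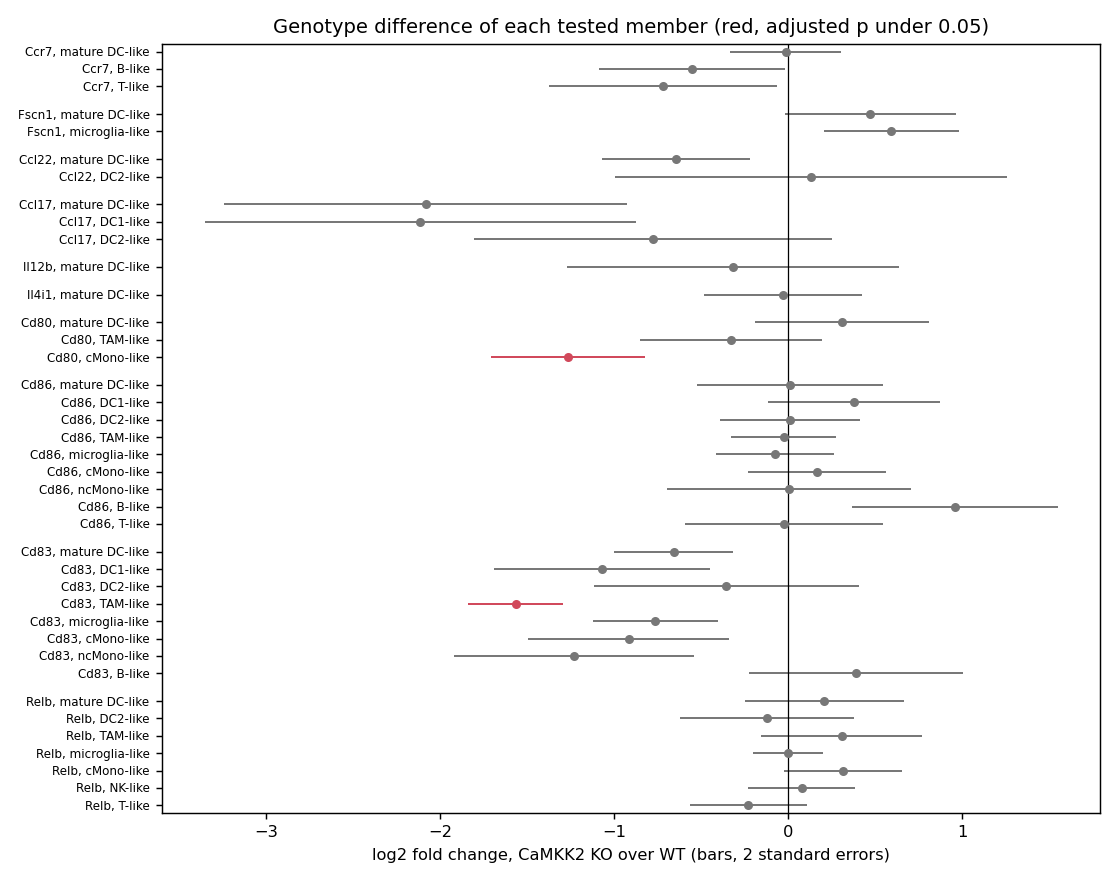
Log2 fold change, CaMKK2 KO over WT, for each member in each class where it had at least 200 UMIs, with bars of 2 standard errors; red marks an adjusted p under 0.05 in edgeR. Cd83 in TAM-like (-1.57) and Cd80 in cMono-like cells (-1.27) are red, and Cd83 lies left of 0 in 7 of its 8 classes. The classes come from the same mice and channels, so these signs are not independent. How many of all genes lie on 1 side in these classes was not counted.

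Cd83 fell in TAM-like cells of CaMKK2 KO mice. It was at 146, 130.8, 157 and 144 CPM in the WT mice and at 57.1, 35.9, 52.9 and 48.6 CPM in the CaMKK2 KO mice. Every WT mouse lay above every CaMKK2 KO mouse, with means of 145 ± 10.9 and 48.6 ± 9.16 CPM. The log2 fold change was -1.57 (SE 0.14, adjusted p = 0.000339), where 2.31% of 9099 genes tested in TAM-like cells were called and 1.34% were called as lower. Leaving out each mouse in turn gave -1.66 to -1.44. A Cd83 UMI was found in 65.7% of WT and 38.2% of CaMKK2 KO TAM-like cells, at similar depth, and in 8.85% and 3.21% of T-like cells. Of the other members tested there, Cd86 was at -0.03, Relb at 0.31 and Cd80 at -0.33, and none passed.

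TAM-like cells of WT and CaMKK2 KO mice fell largely in different clusters. Of the WT cells, 44.6% were in a cluster led by Vcam1, Col14a1, Apoe and Mrc1 and 23.4% in one led by Spp1, Gpnmb, Pf4 and Ecm1. Of the CaMKK2 KO cells, 45.3% were in a cluster led by Gm4841, Ly6i, Cxcl9 and Dnase1l3 and 26.9% in one led by Cxcl13, Clec4b1, Cd72 and Ch25h. In the cluster best shared, led by Apoe, C1qb, Abcg3 and Cd93, Cd83 was at 181 CPM in 236 WT cells, against 75.8 CPM in 134 CaMKK2 KO TAM-like cells. In the cluster led by Gm4841 it was at 245 CPM in 28 WT cells, against 47.0 CPM in 449 CaMKK2 KO cells, and in that led by Cxcl13 and Clec4b1 at 88.0 CPM in 27 and 46.9 CPM in 267. These within-cluster values pool mice and were not tested. The summed level of the 8 classical monocyte markers in TAM-like cells was 399 to 1157 CPM in WT mice against 1144 to 3771 CPM in CaMKK2 KO mice, that of the 10 TAM markers 22186 to 22886 and 16455 to 21245 CPM, and that of the 17 mature dendritic cell markers 494 to 551 and 431 to 539 CPM. The 10 microglia markers, of a class with high Cd83, were at 1685 to 1970 CPM in WT mice and lower without overlap in CaMKK2 KO mice, at 748 to 1506 CPM. The NK and T cell lists were higher without overlap, at 10.8 to 12.8 and 11.8 to 17.0 CPM in WT mice, against 23.0 to 29.2 and 25.3 to 31.8 CPM in CaMKK2 KO mice. The part of these lists in the Cd83 difference was not tested.

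**Figure D5:**
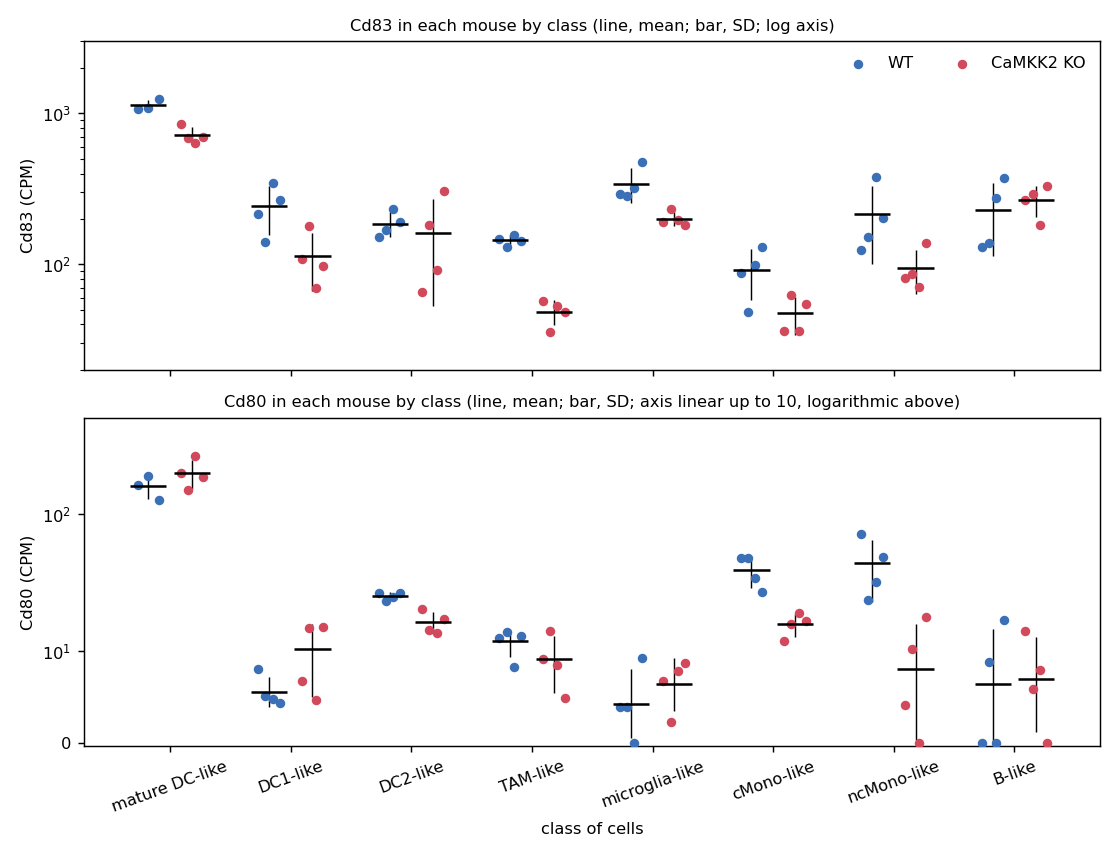
Cd83 (top, log axis) and Cd80 (bottom, linear up to 10 CPM and logarithmic above) in CPM, in 8 classes of each mouse, WT in blue and CaMKK2 KO in red, with means and SDs. For Cd83 the groups separate fully in mature DC-like, TAM-like and microglia-like cells, and for Cd80 in DC2-like, cMono-like and ncMono-like cells. How many of all genes do not overlap in these classes was not counted.

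In the other myeloid classes the mean of Cd83 was lower in CaMKK2 KO mice, and the test did not pass. Microglia-like cells had 294, 283, 322 and 474 CPM in WT mice and 192, 233, 196 and 183 CPM in CaMKK2 KO mice (log2 fold change -0.76, SE 0.18, adjusted p = 0.0636, where 1.15% of genes were called). None of the 4 members tested in microglia-like cells passed. The log2 fold change was -1.07 in DC1-like, -0.92 in cMono-like, -1.23 in ncMono-like and -0.36 in DC2-like cells, with adjusted p-values of 0.137, 0.149, 0.239 and 0.704. B-like cells went the other way at 0.39 (adjusted p = 0.472). Differences between classes in the effect of genotype were tested within mice, for Cd83 in TAM-like cells against 6 other classes and for Cd80 in cMono-like cells against 6, 12 tests in all. None of the 12 passed after adjustment. On the log2(CPM + 1) scale the Cd83 effect in TAM-like cells differed from that in microglia-like cells by -0.83 and from that in B-like cells by -1.91, each with an exact permutation p of 0.0286 and an adjusted p of 0.137.

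Cd80 fell in cMono-like cells, which were at 47.4, 47.6, 34.1 and 27.1 CPM in WT mice and at 11.7, 15.6, 18.9 and 16.5 CPM in CaMKK2 KO mice. The groups did not overlap, with means of 39.1 ± 10.2 and 15.7 ± 2.98 CPM. The log2 fold change was -1.27 (SE 0.22, adjusted p = 0.0123), where 2.13% of 6766 genes were called and 0.975% were called as lower. Of the other 3 members tested there, none passed. WT mouse 1 had 14 cMono-like cells. Without WT mouse 2 the change was -1.07 and did not pass (adjusted p = 0.0788). Most WT cMono-like cells (72.7%) lay in a cluster led by Chil3, Vcan, Thbs1 and Slpi, where Cd80 was at 41.8 CPM in 379 WT cells, against 28.8 CPM in 57 CaMKK2 KO cells. CaMKK2 KO cells lay in clusters led by Gbp2, Cxcl10, Ifi202b and Rsad2 (52.1%) and by Ly6i, Chil1, Ly6c2 and F10 (34.9%), at 14.5 and 15.2 CPM. The 24 and 22 WT cells of these clusters were at 39.7 and 11.9 CPM. These within-cluster values pool mice, rest on few WT cells in the last 2 clusters and were not tested. In DC2-like and ncMono-like cells, where Cd80 had too few UMIs for the test, the groups did not overlap either. DC2-like cells were at 25.3 ± 1.63 and 16.2 ± 3.00 CPM, and ncMono-like cells at 43.7 ± 21.03 and 8.02 ± 7.70 CPM. The ncMono-like values rest on 29 WT and 17 CaMKK2 KO UMIs, and the highest, 71.2 CPM, came from 8 cells of WT mouse 1.

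Conventional dendritic cells held few members that could be tested. Of 3 members tested in DC1-like cells none passed (1.46% of 2196 genes did). Ccl17 there was at 144, 78.1, 69.1 and 446 CPM in WT mice and at 43.8, 61.6, 46.7 and 0 CPM in CaMKK2 KO mice (log2 fold change -2.11, SE 0.62, adjusted p = 0.141). Under a stricter class rule the change was -0.81 (adjusted p = 0.427). In DC2-like cells, none of 5 passed, where 1.19% of 4612 genes did, and Ccl17 was at -0.78 (adjusted p = 0.502). CaMKK2 KO mouse 4 had 12 DC2-like and 6 DC1-like cells and the lowest Ccl17 in both. Cd86 was at 0.38 in DC1-like, at 0.01 in DC2-like cells and at 0.17 in cMono-like cells, none of which passed. Relb in DC2-like cells was at -0.12, and Ccl22 at 0.13. With classes taken from clusters, Ccl22 in DC2-like cells was at 2.58 (adjusted p = 0.124) and Ccl17 at -0.16 (adjusted p = 0.926).

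Among lymphocytes, no member with at least 200 UMIs passed. Cd83 did not reach that count in NK-like and T-like cells. With a minimum of 50 UMIs it was called in NK-like cells (log2 fold change -2.32, adjusted p = 0.0260 in edgeR). With no filter it was called in T-like cells as well (log2 fold change -1.25, adjusted p = 0.0214 in edgeR). A Cd83 UMI was seen in 7.07% of WT and 2.04% of CaMKK2 KO NK-like cells. The share of all genes called under these settings was not counted. In B-like cells 3 were tested, and 3.06% of 1143 genes were called. Cd86 was at 131, 141, 119.7 and 169 CPM in WT mice and 167, 301, 167 and 386 CPM in CaMKK2 KO mice (log2 fold change 0.96, SE 0.30, adjusted p = 0.0822). Ccr7 was at 272, 292, 507 and 270.1 CPM in WT mice, against 278, 148, 230.0 and 279 CPM in CaMKK2 KO mice (log2 fold change -0.55, adjusted p = 0.245). In T-like cells 2.24% of 7114 genes were called and none of 3 members. Ccr7 was at 33.2, 52.1, 33.9 and 37.7 CPM in WT mice, against 15.9, 36.8, 12.6 and 41.4 CPM in CaMKK2 KO T-like cells (log2 fold change -0.72, SE 0.33, adjusted p = 0.279). Split by UMIs of Cd8a, Cd8b1, Cd4 and Foxp3, its level was 25.9, 31.8, 27.4 and 32.5 CPM in CD8 T cells of WT mice and 6.30, 15.997, 3.15 and 13.8 CPM in those of CaMKK2 KO mice. In Foxp3-negative CD4 T cells it was 33.5 ± 31.0 CPM in WT mice (n = 3), resting on 7 UMIs, and 64.4 ± 14.8 CPM (n = 4) in CaMKK2 KO mice. Its values overlapped between the genotypes in that subset and in the other two, with 62.6 ± 71.5 CPM in Foxp3+ T cells and 56.8 ± 33.4 CPM in the remaining T cells of WT mice, against 27.7 ± 25.1 and 16.7 ± 12.3 CPM in those of CaMKK2 KO mice (n = 4 each). The mean was thus lower in CaMKK2 KO mice in 3 of the 4 subsets. These subsets were looked at after the values were seen and were not tested. In NK-like cells 1 member, Relb, was tested and was at 0.08, where 3.07% of genes were called. The 2 members tested in ncMono-like cells did not pass either (0.566% of 1943 genes did), with Cd86 at 0.00, and in pDC-like cells no member had 200 UMIs.

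The other genes of the pathway were taken from 7 lists of 66 genes. In mature DC-like cells none was called of 12 NF-κB and survival genes tested, of 8 co-stimulatory and checkpoint ligands, of 6 migration genes, of 7 regulators and of the 1 cytokine tested. Their median log2 fold changes were 0.09, 0.30, 0.09 and 0.42 for the first 4 lists, against 0.07 for all genes. Traf1, Cd200, Cacnb3, Tmem123, Anxa3, Socs2 and Il15ra of these lists were also on the marker list of the mature class. Cells were chosen by these genes, so the test in this class cannot show whether their levels depend on genotype. The counts and medians include those of them that were tested. None of the antigen uptake genes of immature cells reached the count minimum there. In DC2-like cells 1 of 7 migration genes was called, Ccr2, the receptor by which monocytes and their descendants leave the marrow, which was also on the classical monocyte marker list. Ccr2 was at 71.8, 90.9, 154 and 131 CPM in WT mice, against 418, 510.5, 198 and 425 CPM in CaMKK2 KO mice (log2 fold change 1.77, SE 0.31, adjusted p = 0.0212). The summed level of the 8 classical monocyte markers in DC2-like cells was 658 to 1861 CPM in WT mice and 1866 to 4645 CPM in CaMKK2 KO mice, and its part in the difference was not tested. In TAM-like cells 1 of 7 co-stimulation and checkpoint genes was called, the death receptor Fas, at 5.81, 6.10, 9.16 and 6.90 CPM in WT mice, against 13.1, 11.8, 12.5 and 17.3 CPM in CaMKK2 KO mice (log2 fold change 0.94, adjusted p = 0.0384). In DC1-like cells none of the lists' genes was called. In T-like cells 2.24% of 7114 genes were called, and Ccr2 and Cd200 of these lists were among them, both higher in CaMKK2 KO mice. Ccr2 was at 70.7 ± 16.8 CPM in WT mice, against 188 ± 23.2 CPM in CaMKK2 KO mice (log2 fold change 1.32, adjusted p = 0.000128 in edgeR). Cd200 was at 30.5 ± 12.7 and 137 ± 26.3 CPM (log2 fold change 2.03, adjusted p = 0.000128 in edgeR). Irf8 and Clec9a of these lists were also DC1 markers, and Cd209a, Clec10a and Mgl2 were also DC2 markers.

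The receptors that read the members' products were looked up in mature DC-, DC1-, DC2-, TAM-, cMono-, microglia-, B- and T-like cells. NK-like cells were not looked at. Most receptors that reached the count minimum did so in T-like cells, and none was called. Cd28, the activating receptor of CD80 and CD86, was at 193 ± 39.7 CPM in WT mice, against 263 ± 39.0 CPM in CaMKK2 KO mice (log2 fold change 0.40, adjusted p = 0.182). Ctla4, their inhibitory receptor, was at 424 ± 84.0 and 529 ± 146 CPM (log2 fold change 0.29, adjusted p = 0.451). The IL-12 receptor chains Il12rb1 and Il12rb2 had log2 fold changes of 0.47 (adjusted p = 0.203) and 0.21 (adjusted p = 0.635). In TAM-like cells Il12rb1 was at 6.20 ± 3.14 and 12.6 ± 5.21 CPM (adjusted p = 0.193). Nfkb2, which encodes the p52 partner of RelB, was at 323 ± 44.4 and 381 ± 42.8 CPM in mature DC-like cells (log2 fold change 0.24, adjusted p = 0.590). The CCR4 gene and the CCR7 ligands Ccl19 and Ccl21a did not reach the count minimum in the classes looked at, which left out NK-like cells.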

How the data were processed

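The authors demultiplexed the runs with bcl2fastq 2.20 and aligned them to mm10 with Cell Ranger 4.0.0 (their processing notes also list STAR 2.7.5c), and deposited raw UMI counts per gene and barcode, not normalized, with 4 hashtags per channel. Here, HTODemux in Seurat 5.3.0 (quantile 0.99) assigned 5974 of 6689 WT and 6696 of 7271 CaMKK2 KO barcodes to 1 mouse. Cells were removed if they had under 200 genes or lay over 3 median absolute deviations away in UMIs, genes or the mitochondrial share (scuttle 1.12.0). Those of highest Scrublet score (scanpy 1.11.5) were removed as well, 222 in the WT and 169 in the other channel, 1 for every 3 hashtag doublets. That step was added because Scrublet's own cutoff marked too few cells.

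A cell took the class with the highest mean z-score over its markers if the margin to the next was at least 0.25 and 3 markers were detected. This rule was set after the data were seen. The members and gene lists were chosen with earlier results of these data known. UMIs were summed per mouse and class (at least 5 cells) and tested with edgeR 4.0.16 (quasi-likelihood, library size the class total, genes with at least 200 UMIs, Benjamini-Hochberg). CPM are UMIs scaled to 1000000 per sum. Hashtag numbers name mice only, and whether the mice differed in litter or date was not stated. Named were the 10 members in all classes, companion genes called in dendritic, TAM-like or T-like cells, members' receptors and the 5 genes most like Ccr7. The companion lists count Il12a and Nfkb2 in more than 1 list. Shares were compared by exact permutation tests. In simulated data, 200 genes per class were changed 2- or 4-fold. The edgeR step recovered 65% of 2-fold and 99% of 4-fold changes for mature DC-like cells (1353 genes), with 2.96% of calls false. For TAM-like cells (9099 genes) it recovered 85% and 98%, with 9.41% false. In the data only 4 genes were called in mature DC-like cells. An adjusted threshold is easier to pass when more genes change, so the simulated rates do not give the power of the tests in that class.

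Alternatives were DESeq2 1.42.0, TMM scaling, no filter or 50 UMIs, limma 3.58.1 on mean CPM, outlying or high-scoring cells kept, a stricter margin (0.5 and 5 markers), each mouse left out, and, added after seeing the data, clusters in place of the marker rule and the mouse with 3 mature cells kept. Positions are from GENCODE M21, with 31107 of 31253 gene identifiers matched. The hashtag libraries' own counts served only to assign mice.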

Additional observations from a re-analysis of the deposited data

Results flagged for a closer look

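Members' levels and the shares of dendritic cell classes were examined for a mouse far from the rest (Dixon's 95% criterion). Of 76 such groups of 4 mice, 4 had one, all in members' levels, where chance gives about 1 in 20. Ccr7 in B-like cells was at 507 CPM in WT mouse 3, with the other WT mice between 270.1 and 292 CPM. Relb in NK-like cells was at 39.1 CPM in WT mouse 2, below 42.3 to 42.7 CPM in the others. In T-like cells the same mouse had the highest Relb, 55.1 CPM against 43.3 to 44.9 CPM. Fscn1 in microglia-like cells was at 88.8 CPM in WT mouse 4, against 56.1 to 60.4 CPM. None of these genes was called between genotypes in these classes.

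The effect of genotype on Cd83 in TAM-like cells differed from that in microglia-like cells by -0.83 and from that in B-like cells by -1.91 on the log2(CPM + 1) scale. The exact permutation p was 0.0286 for each, the smallest that 4 mice against 4 can give, and 0.137 after adjustment over 12 tests.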

How the results depend on the processing

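Over 39 results, 572 of 656 alternative fold changes kept the direction and the side of the threshold of the value reported. Most of these results were uncalled as reported, so that staying uncalled with the same sign counted as kept. The runs with a mouse left out also share most of their mice. No paired analysis was possible because the labels give the mice no replicate numbers, and a hashtag number only names a mouse within its channel. The fall of Cd83 in TAM-like cells passed in every alternative run (-1.66 to -1.44 with each mouse left out). That of Cd80 in cMono-like cells ranged from -1.40 to -1.07 with each mouse left out and was lost without WT mouse 2. With no filter on low counts, members called were 1 in mature DC-like, 3 in DC1-like, 2 in DC2-like, 1 in microglia-like, 2 in cMono-like, 4 in ncMono-like, 2 in B-like, 1 in NK-like and 2 in T-like cells. DESeq2 called 2 in mature DC-like and 1 in DC1-like cells, clusters 1 in mature DC-like and 1 in ncMono-like cells, a minimum of 50 UMIs 1 in NK-like cells, and keeping high Scrublet scores 1 in microglia-like cells. With each mouse left out the number called was 0 to 1 in mature DC-like, cMono-like and B-like cells. The shares of all genes called under these alternatives were not counted, so the counts of members cannot be set against them. Camkk2 was at -0.80 and called in DESeq2. The difference in the mature share of dendritic cells was 24.2 percentage points (exact permutation p = 0.0286) with high Scrublet scores kept, and 13.7 to 28.4 with each mouse left out. The causes of these changes were not tested.

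Fold changes that turned sign were uncalled both as reported and under the alternative. In mature DC-like cells Ccr7 was 0.071 under the stricter rule and 0.0063 with the mouse of 3 cells kept, and -0.069 to 0.057 with each mouse left out. Cd86 there was -0.063 with TMM, -0.047 with DESeq2, -0.057 with high scores kept and -0.045 with clusters (-0.27 to 0.16 with each mouse left out), and Il4i1 0.027 under the stricter rule and 0.14 with the small mouse kept (-0.21 to 0.13). In DC1-like cells Cd86 was -0.14 under the stricter rule and -0.0051 with clusters. In DC2-like cells Ccl22 was -0.20 with limma (-0.33 to 0.47), Cd86 was -0.045 with TMM, -0.032 with DESeq2, -0.048 with limma and -0.052 with high scores kept (-0.17 to 0.16), and Relb was 0.40 under the stricter rule and 0.31 with clusters (-0.27 to 0.056). In TAM-like cells Cd86 was 0.061 with TMM, 0.059 with DESeq2 and 0.0043 under the stricter rule (-0.14 to 0.088). In microglia-like cells Cd86 was 0.042 with TMM and 0.038 with DESeq2 (-0.17 to 0.035), and Relb was 0.11 with TMM, 0.00057 with no filter, 0.00060 at 50 UMIs, 0.12 with DESeq2, 0.47 with limma, 0.057 under the stricter rule and 0.085 with clusters (-0.13 to 0.16). TMM moved the median of all genes by 0.107 there, from -0.11. Without a change of sign, Ccl17 was -0.81 in DC1-like cells under the stricter rule and -1.40 with limma and -0.16 with clusters in DC2-like cells, and Ccl22 was 2.58 in DC2-like cells with clusters. In ncMono-like cells Cd86 was -0.19 to 0.26. In NK-like cells Relb was -0.0052 with TMM, -0.0018 with DESeq2 and -0.014 with outlying cells kept (-0.0060 to 0.23). In T-like cells Cd86 was 0.022 with DESeq2, 0.65 with limma and 0.29 with high scores kept (-0.15 to 0.16).

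The main limits are 1 channel per genotype, 3 WT mice with enough mature DC-like cells, marker-gated classes that clusters of the 2 genotypes fill differently, and few UMIs of Il12b, Ccl17 and Il4i1 outside dendritic cells.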
